A study of Rattus norvegicus with 2 samples.

Results

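Fibroblasts were picked from dissociated rat lung cells by a gate on marker genes, and 553 of the 33546 barcodes with at least 200 detected genes passed it. A barcode passed when at least 3 of the 9 genes Col1a1, Col1a2, Col3a1, Dcn, Lum, Pdgfra, Tcf21, Inmt and Mfap4 had a unique molecular identifier (UMI, a count of 1 captured transcript), when these genes held at least 0.5% of its UMIs, and when the mesothelial genes Msln, Upk3b and Lrrn4 together held less than 0.1%. The explosion library gave 434 such fibroblasts of 12450 barcodes and the control library 119 of 21096. The study set blast-exposed lung beside unexposed lung to describe the heterogeneity of its cells, measured by droplet-based 10x Genomics 3′ sequencing. The explosion library came from lungs of rats exposed to a gas explosion and the control library from lungs of unexposed rats, both kept specific-pathogen-free. The labels give no strain, age, sex, time after exposure or number of animals. There was 1 library in each group, so replicate error could not be measured and no p-value is given. Values in parentheses after a fold or share are its 95% interval, from counting error alone.

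Lung fibroblasts make and remodel the collagen and elastic fibre scaffold of the organ. Adventitial fibroblasts sit in the sleeves around airways and large vessels and are known for Pi16, Dpp4 and Dcn in mice and humans. Alveolar fibroblasts lie in the walls of the air sacs, support the alveolar epithelium, and are known for Npnt, Itga8 and the transcription factor Tcf21.

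The promoters of 4 genes listed on either side of this division are shown first, since lists below are built on it. Itga8 (an integrin subunit that binds nephronectin) and Tbx4 (a lung mesenchyme transcription factor) belong to the alveolar side, and Pi16 (a secreted peptidase inhibitor family member) and Dpt (dermatopontin, a collagen-binding matrix protein) to the adventitial side. Dpt differed by less than 2-fold between the fibroblasts of the 2 libraries, at a log2 ratio of −0.60. The sequences are from RefSeq, assembly GRCr8, and run from 250 bases before to 50 bases after the annotated start of the gene, at chr17:80410584-80410883 (minus strand), chr10:71228306-71228605 (plus strand), chr20:7377703-7378002 (plus strand) and chr13:79656091-79656390 (plus strand). Capitals mark matches to the E-box CAGCTG, the site of basic helix-loop-helix factors such as Tcf21, or to the TATA box TATAAA.
Itga8: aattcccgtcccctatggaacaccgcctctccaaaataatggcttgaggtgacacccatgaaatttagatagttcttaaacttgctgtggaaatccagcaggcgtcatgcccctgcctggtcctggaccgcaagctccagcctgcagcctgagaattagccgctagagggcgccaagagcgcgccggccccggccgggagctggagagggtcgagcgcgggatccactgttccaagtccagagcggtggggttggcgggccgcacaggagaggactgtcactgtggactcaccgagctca
Tbx4: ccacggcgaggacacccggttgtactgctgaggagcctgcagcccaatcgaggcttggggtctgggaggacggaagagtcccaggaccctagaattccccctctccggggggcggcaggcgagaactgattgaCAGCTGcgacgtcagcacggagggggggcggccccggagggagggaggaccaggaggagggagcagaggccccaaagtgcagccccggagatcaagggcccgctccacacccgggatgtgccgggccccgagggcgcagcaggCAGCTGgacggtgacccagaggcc
Pi16: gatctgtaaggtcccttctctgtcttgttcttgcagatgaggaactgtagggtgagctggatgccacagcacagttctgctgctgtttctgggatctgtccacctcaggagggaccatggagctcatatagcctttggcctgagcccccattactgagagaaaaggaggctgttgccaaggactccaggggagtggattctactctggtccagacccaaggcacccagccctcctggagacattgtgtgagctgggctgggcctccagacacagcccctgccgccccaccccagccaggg
Dpt: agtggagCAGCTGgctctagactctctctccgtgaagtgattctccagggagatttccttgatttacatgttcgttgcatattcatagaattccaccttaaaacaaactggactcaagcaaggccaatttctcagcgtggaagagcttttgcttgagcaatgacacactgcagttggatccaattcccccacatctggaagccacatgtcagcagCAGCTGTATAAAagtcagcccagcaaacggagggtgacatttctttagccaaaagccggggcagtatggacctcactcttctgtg

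The 3 motifs CAGCTG, the forkhead core TGTTTAC and the box TATAAA were searched on both strands of the promoters of 21 genes with an entry, out of 28 looked up. CAGCTG, which reads the same on both strands, was found in 5 of the 21 genes, among them Tbx4 and Dpt with 2 matches each, and in 15.1% of the 33469 promoters of the same length in the table. TATAAA was found in 4 of the 21 genes and in 14.2% of all promoters. TGTTTAC was found in 0 of the 21 genes and in 3.78% of all promoters. In Dpt 1 E-box directly adjoined the TATA box without overlap. Itga8 and Pi16 held none of these letters in this window.

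Fibroblasts made up 3.49% (3.17 to 3.82, exact Clopper-Pearson interval) of the explosion barcodes and 0.564% (0.468 to 0.675) of the control barcodes. Depth differed: explosion fibroblasts had a median of 715.5 UMIs and 546.5 genes, and control fibroblasts a median of 2658 UMIs and 1378 genes. The explosion library also held shallow barcodes, and 110 of its fibroblasts but 0 of the control ones had fewer than 500 UMIs. Among barcodes with at least 500 UMIs the shares were 4.80% (324 of 6744) in explosion and 0.564% (119 of 21096) in control. Thinning every barcode to 500 UMIs before gating gave 5.09% in the explosion and 0.668% in the control library. With no limit on mesothelial genes the shares were 9.77% in explosion and 4.06% in control, since 782 explosion and 738 control barcodes otherwise inside the gate carried those genes at 0.1% or more. At the share limit, 2 explosion and 2 control fibroblasts held 0.5 to 0.6% of UMIs in gate genes, and 5 explosion and 7 control barcodes with 0.4 to 0.5% stayed outside. A further 122 explosion and 9 control barcodes met the share limit with only 2 of the gate genes. The libraries shared 85 barcode sequences, of which 0 belonged to a fibroblast.

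Library content differed as well. Within fibroblasts the club cell secretory gene Scgb1a1 took 1.11% of UMIs in the explosion library and 2.57% in the control library, against 6.11% in the other explosion and 24.2% in the other control barcodes. Ribosomal protein genes took 3.98% in explosion and 13.7% in control fibroblasts, mitochondrial ribosomal RNA (the mitochondrial UMIs in these files) 2.61% in explosion and 1.11% in control, and the ribosomal RNA precursor Rn45s 0.358% in explosion and 0.0191% in control. Scrublet called 40 explosion and 15 control fibroblasts as doublets; they were kept. The part of depth and content in the results below was not tested. Levels are given as CPM (UMIs of a gene scaled to 1000000 UMIs in total) after summing over the fibroblasts of a library, whose UMIs numbered 332024 in explosion and 414129 in control.

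The gate genes were used to choose the cells and are given as a description. Col3a1 had 4007 UMIs in explosion against 4044 in control fibroblasts (12068 against 9765 CPM). Col1a2 had 2510 UMIs in explosion against 2892 in control fibroblasts (7559.7 against 6983 CPM). Col1a1 had 3821 UMIs in explosion against 2964 in control fibroblasts (11508 against 7157 CPM), 1.61-fold higher. Dcn, the small leucine-rich proteoglycan decorin, stood at 4439 CPM in explosion and 10509 CPM in control fibroblasts. The microfibril-associated gene Mfap4 had 645 explosion and 352 control UMIs, the growth factor receptor Pdgfra 175 explosion and 121 control UMIs, Tcf21 73 explosion and 51 control UMIs, and the proteoglycan Lum 97 explosion and 109 control UMIs. Inmt, a methyltransferase abundant in lung stroma, was counted 12 times in explosion fibroblasts and 0 times in control fibroblasts. In T cells, gated on at least 2 of Cd3e, Cd3d, Cd3g and Cd2 and used here to gauge free RNA, Col1a1 had a UMI in 3.42% (4 of 117) of explosion and 0.724% (11 of 1519) of control barcodes thinned to 500 UMIs, against 88.3% (286 of 324) of explosion and 77.3% (92 of 119) of control fibroblasts.

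Genes outside the gate that stromal cells are known for, such as Postn and Mmp2, stood far above the other barcodes in both libraries. Of 2590 genes with at least 20 fibroblast UMIs in each library, 552 (21.3%) were at least 2-fold higher in fibroblasts than in the other barcodes of their library in both libraries, and 170 of them at least 10-fold. Ranked by the smaller of the ratios in the 2 libraries, Galnt16, Crispld2, Bdkrb2, Dpt, C7, Mrgprg, Postn, Ebf2, Prrx1 and Igsf10 came first. C7, a terminal complement component, was 138-fold higher in explosion and 3350.5-fold higher in control fibroblasts than in the other barcodes. Prrx1, a mesenchymal homeobox factor, was 119-fold higher in explosion and 2028-fold higher in control fibroblasts than in the other barcodes. Mmp2, the gelatinase that cuts denatured and basement membrane collagen, was 90.4-fold higher in explosion and 1819.5-fold higher in control fibroblasts than in the other barcodes. The lower ratios in the explosion library went with more stromal UMIs in its other barcodes, where Mmp2 stood at 9.96 CPM, against 0.460 CPM in the other control barcodes. Of 14 pericyte genes 3 were measured (Pdgfrb, Abcc9 and Ebf1), 0 of them past 2-fold, and the list summed to 569 CPM in explosion and 488 CPM in control fibroblasts. The pericyte genes Rgs5, Notch3 and Trpc6 were at 0 in both, and the remaining 8 had at most 6 UMIs in either library.

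Between the libraries, 6318 genes had at least 20 fibroblast UMIs over both and were compared. The explosion level was at least 2-fold higher for 1743 genes (27.6%) and at least 2-fold lower for 892 (14.1%), with a median log2 ratio of 0.43. A list median is read here against that 0.43, and a count of list members past 2-fold against those shares. Without Scgb1a1, ribosomal protein, mitochondrial and Rn45s UMIs in the totals the median was 0.27.

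Most measured genes that mark alveolar fibroblasts were higher in explosion fibroblasts, and several of those that mark adventitial fibroblasts were lower. In sums over all gated cells, a different mix of fibroblast kinds and a different level within a kind cannot be told apart. Of 30 alveolar fibroblast genes, 23 were measured, 16 were at least 2-fold higher in explosion fibroblasts (background 27.6%) and 1 lower (background 14.1%), with a median log2 ratio of 1.62. Of 30 adventitial fibroblast genes all were measured, 1 was at least 2-fold higher, 8 were lower and 21 lay between, with a median of −0.55. In the other barcodes the alveolar list had a median of 1.88, with 15 of the same 23 genes at least 2-fold higher. The adventitial list had a median of 1.99 there. The background in the other barcodes was a median of 0.99, with 49.7% of all genes at least 2-fold higher. The alveolar median was thus above that of all genes both inside and outside the gate. The lists and the genes named from them were chosen with earlier results of these data known.

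**Figure D1:**
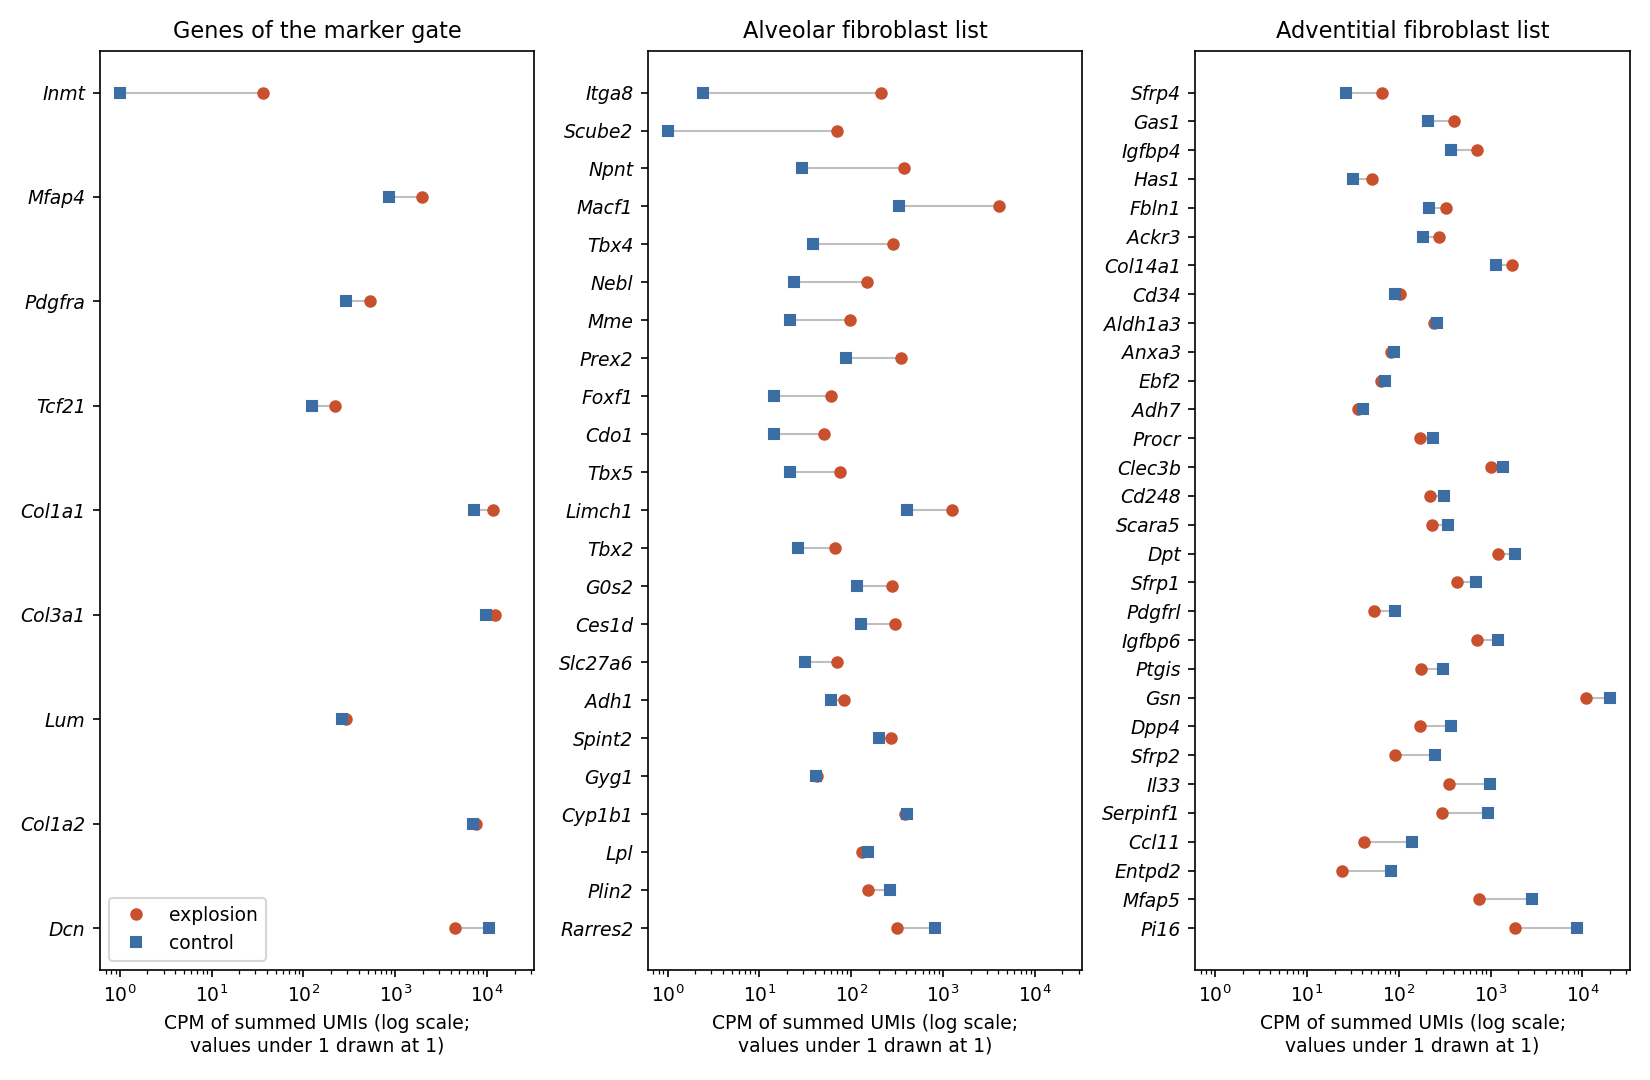
CPM of UMIs summed over gated fibroblasts, explosion as circles and control as squares, for the gate genes and for the measured members of the alveolar and adventitial lists, on a log axis. Alveolar genes such as Itga8 and Npnt lie far to the right in the explosion library, while Pi16 and Mfap5 lie to the right in the control library and Col3a1 lies close together.

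Itga8, the alpha chain of the nephronectin receptor, had 70 UMIs in explosion against 1 in control fibroblasts (211 against 2.41 CPM), a ratio of 87.3-fold (15.2 to 3497). Npnt, which encodes nephronectin itself, had 124 UMIs in explosion against 12 in control fibroblasts (373 against 29.0 CPM), a ratio of 12.9-fold (7.12 to 25.6). The ligand and its receptor chain thus differed in the same direction. With no limit on mesothelial genes Npnt stood at a log2 ratio of 1.22, and at 2.18 when barcodes were thinned before gating, against 3.63 as gated. Scube2, a secreted carrier of hedgehog ligands, was counted 23 times in explosion and 0 times in control fibroblasts, at least 9.56-fold higher against a floor of 3 counts. Col13a1, a transmembrane collagen, had 62 UMIs in explosion against 1 in control fibroblasts (187 against 2.41 CPM). Its ratio was 77.3-fold (13.4 to 3103).

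The lung mesenchyme T-box factors were higher together. Tbx4 had 94 UMIs in explosion against 16 in control fibroblasts (283 against 38.6 CPM) and a ratio of 7.33-fold (4.29 to 13.3). Tbx5 had 25 explosion and 9 control UMIs and Tbx2 22 explosion and 11 control UMIs. Foxf1, the forkhead factor of lung mesenchyme, had 20 explosion and 6 control UMIs, 4.16-fold (1.61 to 12.7). Nebl, an actin filament anchoring protein, had 50 explosion and 10 control UMIs, and Mme, the membrane peptidase neprilysin, 32 explosion and 9 control UMIs. Limch1, which activates non-muscle myosin, stood at 1247 CPM in explosion and 406 CPM in control fibroblasts. Macf1, an actin and microtubule crosslinker, had 1350 explosion and 139 control UMIs, 12.1-fold (10.2 to 14.5), but it was also found in 47.0% (55 of 117) of explosion and 14.7% (223 of 1519) of control T cells at 500 UMIs, so that this difference was not particular to fibroblasts. Other members leaned to the control side: Plin2, the lipid droplet coat protein, had 51 explosion and 110 control UMIs, and Lpl, lipoprotein lipase, 44 explosion and 63 control UMIs. Rarres2, which encodes the chemoattractant chemerin, was the 1 member at least 2-fold lower, at 316 CPM in explosion and 809 CPM in control fibroblasts.

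On the adventitial side, Pi16 had 618 UMIs in explosion against 3619 in control fibroblasts (1861 against 8739 CPM), 4.69-fold (4.31 to 5.12) lower in the explosion library. Mfap5, a microfibril glycoprotein, had 248 UMIs in explosion against 1158 in control fibroblasts (747 against 2796 CPM), 3.74-fold (3.26 to 4.31) lower. Dpp4, a surface peptidase, had 57 explosion and 154 control UMIs, and Il33, an alarmin cytokine, 116 explosion and 404 control UMIs, 2.79-fold (2.27 to 3.46) lower. Serpinf1, which encodes the antiangiogenic factor PEDF, stood at 298 CPM in explosion and 932 CPM in control fibroblasts. Entpd2, an ectonucleotidase, had 8 explosion and 34 control UMIs, Ccl11, the eosinophil attractant eotaxin, 14 explosion and 57 control UMIs, and the Wnt-binding Sfrp2 30 explosion and 102 control UMIs. The Ccl11 UMIs came from only 7 explosion and 7 control barcodes. Other members of the same list were close between the libraries or leaned to the explosion side. Cd34 had 34 explosion and 38 control UMIs, Col14a1, a fibril-associated collagen, 561 explosion and 469 control UMIs, and the hedgehog co-receptor Gas1 134 explosion and 86 control UMIs. Sfrp4 was the 1 member at least 2-fold higher, with 22 explosion and 11 control UMIs. With no limit on mesothelial genes the adventitial median was 0.10 and the log2 ratios of Pi16 and Mfap5 were −1.13 and −0.80, against −2.23 and −1.90 with it.

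Barcodes were also sorted by marker UMIs after thinning to equal depth. They had been gated before thinning, at medians of 715.5 UMIs in explosion and 2658 in control fibroblasts. A pair of marker sets was used: Npnt, Itga8, Col13a1 and Scube2 for the alveolar side, and Pi16, Mfap5 and Dpp4 for the adventitial side. The sets were chosen after these values were seen, so the shares describe the libraries and do not test a division. After thinning to 500 UMIs, which left out 110 shallower explosion barcodes and 0 control barcodes, 22.2% (72 of 324, 17.8 to 27.1) of explosion fibroblasts and 1.68% (2 of 119, 0.204 to 5.94) of control fibroblasts had a UMI of the alveolar set only. The adventitial set only was seen in 40.4% (131 of 324, 35.0 to 46.0) of explosion and 75.6% (90 of 119, 66.9 to 83.0) of control fibroblasts. Both sets were seen in 3.09% of explosion and 0.840% of control fibroblasts, and neither set in 34.3% of explosion and 21.8% of control fibroblasts. Without thinning, 90 of 434 explosion and 4 of 119 control fibroblasts had the alveolar set only, 174 explosion and 99 control ones the adventitial set only, 39 explosion and 5 control ones both, and 131 explosion and 11 control ones neither.

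T cells gave the level that free RNA of these genes could reach. At 500 UMIs, 1.71% (2 of 117) of explosion and 0.197% (3 of 1519) of control T cells had a UMI of the alveolar set, and 1.71% (2 of 117) of explosion and 5.13% (78 of 1519) of control T cells one of the adventitial set. Most of the control T cell share came from Dpp4, which T cells are known to make and which had a UMI in 3.42% of them. Without thinning, at medians of 552 UMIs in explosion and 2187 in control, the adventitial shares in T cells were 7.58% in explosion and 23.9% in control.

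**Figure D2:**
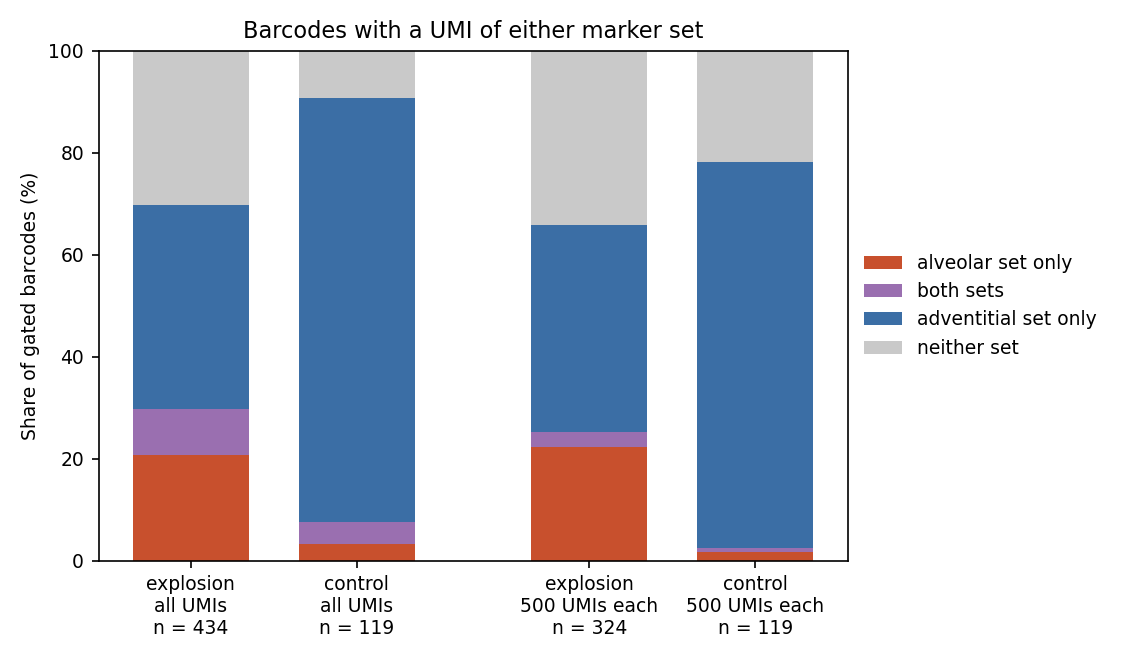
Share of gated fibroblasts (percent) with a UMI of the alveolar marker set only, both sets, the adventitial set only or neither, with all UMIs and with 500 UMIs per barcode. The alveolar-only part is 22.2% in the explosion bar and 1.68% in the control bar at equal depth.

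Gene by gene the shares were as follows, with Npnt, Col13a1, Pi16, Mfap5 and Dpp4 belonging to the sets chosen after their values were seen. Npnt had a UMI in 13.9% (45 of 324) of thinned explosion and 2.52% (3 of 119) of thinned control fibroblasts, Col13a1 in 9.57% (31 of 324) of explosion and 0 of 119 control fibroblasts (exact upper bound 3.05%; a floor of 3 counts allows a share of up to 2.52%), and Tbx4 in 10.2% (7.12 to 14.0) of explosion and 4.20% (1.38 to 9.53) of control. Pi16 had one in 30.9% (100 of 324) of explosion and 68.1% (81 of 119) of control fibroblasts and Mfap5 in 25.6% of explosion and 51.3% of control. Dpp4 had one in 7.41% (4.80 to 10.8) of explosion and 16.8% (10.6 to 24.8) of control. Of the adventitial genes not used in the sets, Dpt was seen in 46.0% of explosion and 43.7% of control fibroblasts, and Clec3b, which encodes tetranectin, in 39.5% of explosion and 37.8% of control. Il33, another such gene, was seen in 13.6% (10.0 to 17.8) of explosion and 34.5% (26.0 to 43.7) of control fibroblasts. Cxcl14 was seen in 17.9% of explosion and 1.68% of control fibroblasts, and Mylk in 28.1% of explosion and 6.72% of control. The intervals overlapped for Dpt, Clec3b and Tbx4 outside the sets, and for Dpp4 and Scube2 in them. They lay apart for Npnt, Itga8, Col13a1, Pi16 and Mfap5 in the sets, and for Il33, Cxcl14 and Mylk outside them. All of these genes were chosen with earlier results of these data known, so the separation gives the sets no support. The intervals cover counting error alone, and barcodes of 1 library are not replicates.

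Within the explosion library other genes differed between the marker sets as well. The 90 barcodes with the alveolar set only (71787 UMIs, median 728) were compared with the 174 that had the adventitial set only (140360 UMIs, median 747), at nearly equal depth. Of 2276 genes measured, 249 (10.9%) were at least 2-fold higher in the alveolar-set barcodes and 246 (10.8%) lower, with a median log2 ratio of 0.02. Among alveolar list genes not used in the sets, 7 of 12 were higher and 1 lower, with a median of 1.76. Among adventitial list genes 0 of 20 were higher and 11 lower, with a median of −1.51.

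Cxcl14, a chemokine of tissue-resident stroma, had 109 alveolar-set and 11 adventitial-set UMIs (1518 against 78.4 CPM), 19.4-fold (10.4 to 40.0) higher. Ltbp2, a microfibril protein that binds fibrillin, had 43 alveolar-set and 5 adventitial-set UMIs (599 against 35.6 CPM), and Tcf21 32 alveolar-set and 12 adventitial-set UMIs (446 against 85.5 CPM). Mfap4 had 340 alveolar-set and 93 adventitial-set UMIs (4736 against 663 CPM), 7.15-fold (5.67 to 9.09) higher. Bmp4, a bone morphogenetic protein, had 33 alveolar-set and 13 adventitial-set UMIs (459.7 against 92.6 CPM), and C4a, a complement component, 282 alveolar-set and 109 adventitial-set UMIs (3928 against 777 CPM). The retinaldehyde dehydrogenase Aldh1a1 had 78 alveolar-set and 17 adventitial-set UMIs (1087 against 121 CPM), while its relatives Aldh1a3 with 15 alveolar-set and 49 adventitial-set UMIs (209 against 349 CPM) and Aldh1a2 with 6 alveolar-set and 20 adventitial-set UMIs (83.6 against 142 CPM) leaned the other way. Hsd11b1, which regenerates active glucocorticoid, had 21 alveolar-set and 2 adventitial-set UMIs (293 against 14.2 CPM). Itga1, the collagen receptor chain, had 26 alveolar-set and 6 adventitial-set UMIs (362 against 42.7 CPM), and Apoe, a lipid carrier, 124 alveolar-set and 30 adventitial-set UMIs (1727 against 214 CPM).

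Matrix genes went both ways. In the alveolar-set barcodes 1 of 9 collagen chains was at least 2-fold higher and 4 lower, 3 of 12 elastic fibre genes were higher and 6 lower, and 3 of 20 proteoglycan and matricellular genes were higher and 6 lower. Biglycan (Bgn) was higher with 153 alveolar-set and 108 adventitial-set UMIs (2131 against 769 CPM), 2.77-fold (2.15 to 3.58), as were Emilin1 with 14 alveolar-set and 7 adventitial-set UMIs (195 against 49.9 CPM) and Fbln5 with 26 alveolar-set and 22 adventitial-set UMIs (362 against 157 CPM). The genes that follow, C7 apart, were lower in the alveolar-set barcodes. Dcn had 11 alveolar-set and 1185 adventitial-set UMIs (153 against 8443 CPM), 55.1-fold (30.7 to 111) lower in the alveolar-set barcodes, and Lum 1 alveolar-set and 72 adventitial-set UMIs (13.9 against 513 CPM). Il33 was counted 0 times in the alveolar-set and 102 times in the adventitial-set barcodes, at least 17.4-fold lower. Prrx1 had 0 alveolar-set and 44 adventitial-set UMIs (0 against 313 CPM) and Cd248, the stromal surface protein endosialin, 1 alveolar-set and 68 adventitial-set UMIs (13.9 against 484 CPM). Col14a1 had 15 alveolar-set and 435 adventitial-set UMIs (209 against 3099 CPM), Fbln2, an elastic fibre and basement membrane linker, 4 alveolar-set and 130 adventitial-set UMIs (55.7 against 926 CPM), and Postn, periostin, 1 alveolar-set and 44 adventitial-set UMIs (13.9 against 313 CPM). The fibrillar chain Col1a1 had 338 alveolar-set and 2362 adventitial-set UMIs (4708 against 16828 CPM), 3.57-fold (3.19 to 4.02) lower. C7 differed little, with 409 alveolar-set and 891 adventitial-set UMIs (5697 against 6348 CPM). Dcn, Lum, Col1a1, Mfap4 and Tcf21 are gate genes, which every barcode here had to show in some combination. The genes named here were picked by size of difference and list membership after the sets were drawn.

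**Figure D3:**
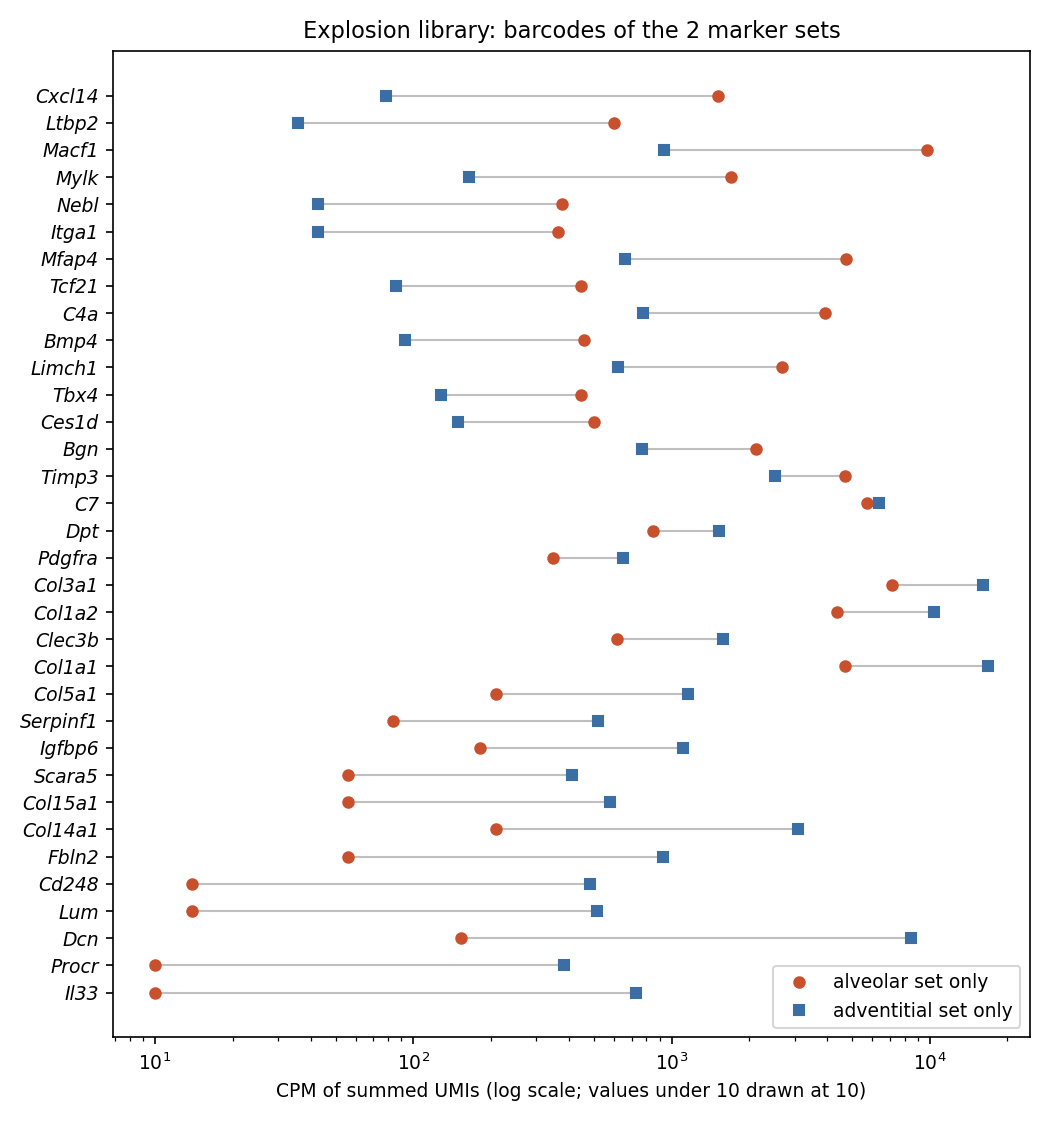
CPM of summed UMIs within the explosion library for barcodes with a UMI of the alveolar set only (circles) and of the adventitial set only (squares), on a log axis, for genes outside both sets. Cxcl14, Ltbp2 and Mylk lie to the right in the alveolar-set barcodes, and Dcn, Il33 and Col14a1 in the adventitial-set barcodes.

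The adventitial-set barcodes were also compared between the libraries, 174 in explosion (median 747 UMIs) and 99 in control (median 2693 UMIs). Of 4467 genes, 1084 (24.3%) were at least 2-fold higher and 765 (17.1%) lower, with a median log2 ratio of 0.28. The barcodes were selected on the gate genes and on a UMI of the adventitial set, at unequal depth. Levels of adventitial genes and of gate genes, Col1a1 and Dcn among them, therefore describe the selected barcodes here and bear on no loss or gain. The adventitial list, without the genes that chose the barcodes, had a median of 0.14, with 6 of 26 members higher and 2 lower. Dcn had 1185 explosion and 4330 control UMIs (8443 against 11788 CPM) and Il33 102 explosion and 399 control UMIs (727 against 1086 CPM). Col1a1 had 2362 explosion and 2884 control UMIs (16828 against 7851 CPM), 2.14-fold (2.03 to 2.26) higher, and Col14a1 435 explosion and 457 control UMIs (3099 against 1244 CPM). The smooth muscle list had 3 of 12 members higher and 3 lower, and the cytokine and chemokine list 4 of 19 higher and 2 lower. Among the lower genes Tagln, an actin-binding protein of smooth muscle, had 13 explosion and 228 control UMIs (92.6 against 621 CPM) and Ccl2, the monocyte attractant, 0 UMIs in explosion and 46 in control, at least 5.86-fold lower. Over all gated fibroblasts Tagln was counted in 33 explosion but only 8 control barcodes, so its control sum came from few barcodes. Mt1, a metallothionein, had 6 explosion and 147 control UMIs (42.7 against 400.2 CPM) and Nupr1, a stress-induced nuclear protein, 8 explosion and 234 control UMIs (57.0 against 637 CPM). They and Ccl2 were among the 20 lowest genes.

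Among the collagen chains outside the gate, 5 of 13 measured genes were at least 2-fold higher in explosion fibroblasts and 0 lower, with a median log2 ratio of 0.60. In the other barcodes all 13 were at least 2-fold higher, with a median of 2.70. Col13a1 led, as given above. Col15a1, a basement membrane zone collagen, had 125 UMIs in explosion against 37 in control fibroblasts (376 against 89.3 CPM), 4.21-fold (2.90 to 6.26). Col6a3, a chain of the beaded filament collagen VI, had 173 explosion and 77 control UMIs, 2.80-fold (2.13 to 3.71), while its partners Col6a1 with 373 explosion and 309 control UMIs and Col6a2 with 286 explosion and 251 control UMIs differed less. The basement membrane chain Col4a1 had 67 explosion and 55 control UMIs and Col4a2 37 explosion and 21 control UMIs. The fibril-nucleating chains Col5a1 with 231 explosion and 275 control UMIs and Col5a2 with 276 explosion and 308 control UMIs were close between the libraries.

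The remaining collagen VI chains lay outside the list and were found by size of difference. Col6a5 had 271 UMIs in explosion against 7 in control fibroblasts (816 against 16.9 CPM) and Col6a6 159 UMIs in explosion against 5 in control fibroblasts (479 against 12.1 CPM). Col6a5 was seen in 113 explosion and 3 control fibroblasts, a ratio of 48.3-fold (23.1 to 121), and Col6a6 in 94 explosion and 5 control fibroblasts, a ratio of 39.7-fold (16.6 to 124). Both were higher in the other explosion barcodes as well, at log2 ratios of 2.42 for Col6a5 and 3.61 for Col6a6. In the adventitial-set barcodes alone Col6a5 had 36 explosion and 0 control UMIs and Col6a6 47 explosion and 1 control UMIs (335 against 2.72 CPM), so that the difference was present there too. With no limit on mesothelial genes the log2 ratio of Col6a5 was 2.14, against 5.50 with it. Other genes with the highest ratios were Ttc39a with 106 explosion and 4 control UMIs, Stk32a, a kinase, with 34 explosion and 1 control UMIs, Trabd2b, a Wnt-cleaving protease, with 49 explosion and 2 control UMIs, and Ccdc3, a secreted protein, with 35 explosion and 2 control UMIs. They were also higher in the other explosion barcodes: the log2 ratios there were 4.48 for Ttc39a, 3.66 for Trabd2b, 2.63 for Ccdc3 and 1.60 for Stk32a, and 5.10 for Rn45s, 4.07 for Slfn4 and 4.09 for Ins2, which the same rule named. The 12 lowest genes included Ramp1, a receptor modifying protein for neuropeptides, with 3 explosion and 66 control UMIs, Il18 with 8 explosion and 102 control UMIs, the ferritin light chain Ftl1 with 36 explosion and 420 control UMIs, Nupr1 with 26 explosion and 263 control UMIs and Lvrn, a peptidase, with 4 explosion and 43 control UMIs. Ramp1, Il18, Ftl1 and Nupr1 were also lower in the other explosion barcodes, so their differences were not particular to fibroblasts. The log2 ratios there were −2.75 for Ftl1, −1.83 for Il18 and −1.01 for Ramp1. Lvrn went the other way there, at 1.18, from 9 explosion and 67 control UMIs.

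Genes that process collagen were nearly level. Of 17 measured members 1 was at least 2-fold higher and 1 lower, with a median of 0.30. The collagen chaperone Serpinh1 had 297 UMIs in explosion against 253 in control fibroblasts (895 against 611 CPM), the prolyl hydroxylase P4ha1 63 explosion and 81 control UMIs and the procollagen peptidase Adamts2 105 explosion and 103 control UMIs. The crosslinking enzymes Lox with 77 explosion and 153 control UMIs and Loxl1 with 84 explosion and 131 control UMIs leaned to the control side, and Ppib, a prolyl isomerase, was 2.29-fold (1.85 to 2.86) lower. Plod1, a lysyl hydroxylase, was the higher member with 27 explosion and 12 control UMIs.

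In the elastic fibre list 3 of 15 members were at least 2-fold higher and 2 lower, with a median of 0.14. Elastin (Eln) had 432 UMIs in explosion against 444 in control fibroblasts (1301 against 1072 CPM) and fibrillin 1 (Fbn1) 575 explosion and 733 control UMIs. Ltbp2 had 74 explosion and 19 control UMIs, 4.86-fold (2.90 to 8.52), Emilin1 38 explosion and 12 control UMIs and Fbln5, which tethers elastic fibres to cells, 91 explosion and 42 control UMIs. Mfap5 and Fbln2 were the lower members, with Fbln2 at 155 explosion and 392 control UMIs. In the proteoglycan and matricellular list 4 of 28 were higher and 4 lower, with a median of 0.29. Vcan (versican) had 111 explosion and 38 control UMIs, Bgn (biglycan) 423 explosion and 197 control UMIs and Ccn1, an early matricellular signal, 427 explosion and 168 control UMIs. On the lower side Omd (osteomodulin) had 22 explosion and 111 control UMIs, Ccn3 14 explosion and 87 control UMIs and Ccn5 6 explosion and 48 control UMIs. Fibronectin (Fn1) had 438 explosion and 425 control UMIs, tenascin C (Tnc) only 10 explosion and 4 control UMIs, and Postn 46 explosion and 66 control UMIs.

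Among matrix proteases and their inhibitors 6 of 17 were at least 2-fold higher and 2 lower, with a median of 0.17. In the other barcodes 13 of these 17 were higher and 0 lower, with a median of 2.26. Timp3, the matrix-bound metalloproteinase inhibitor, had 1084 UMIs in explosion against 357 in control fibroblasts (3265 against 862 CPM), 3.79-fold (3.36 to 4.28). At 500 UMIs it was seen in 66.4% (215 of 324) of explosion and 31.9% (38 of 119) of control fibroblasts, against 1.71% of explosion and 0.197% of control T cells. Its soluble relatives were lower, with Timp1 at 28 explosion and 98 control UMIs, 2.81-fold (1.83 to 4.44) lower, and Timp2 at 521 explosion and 1064 control UMIs, 1.64-fold lower. The aggrecanases Adamts1 with 95 explosion and 18 control UMIs and Adamts15 with 68 explosion and 23 control UMIs were higher, as was Reck, a membrane inhibitor of metalloproteinases, with 78 explosion and 32 control UMIs. Mmp2 had 300 explosion and 349 control UMIs and Mmp14, the membrane metalloproteinase that activates it, 59 explosion and 57 control UMIs. Mmp3 and Mmp9 had at most 1 UMI in either library. With no limit on mesothelial genes this list's median was 0.83.

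**Figure D4:**
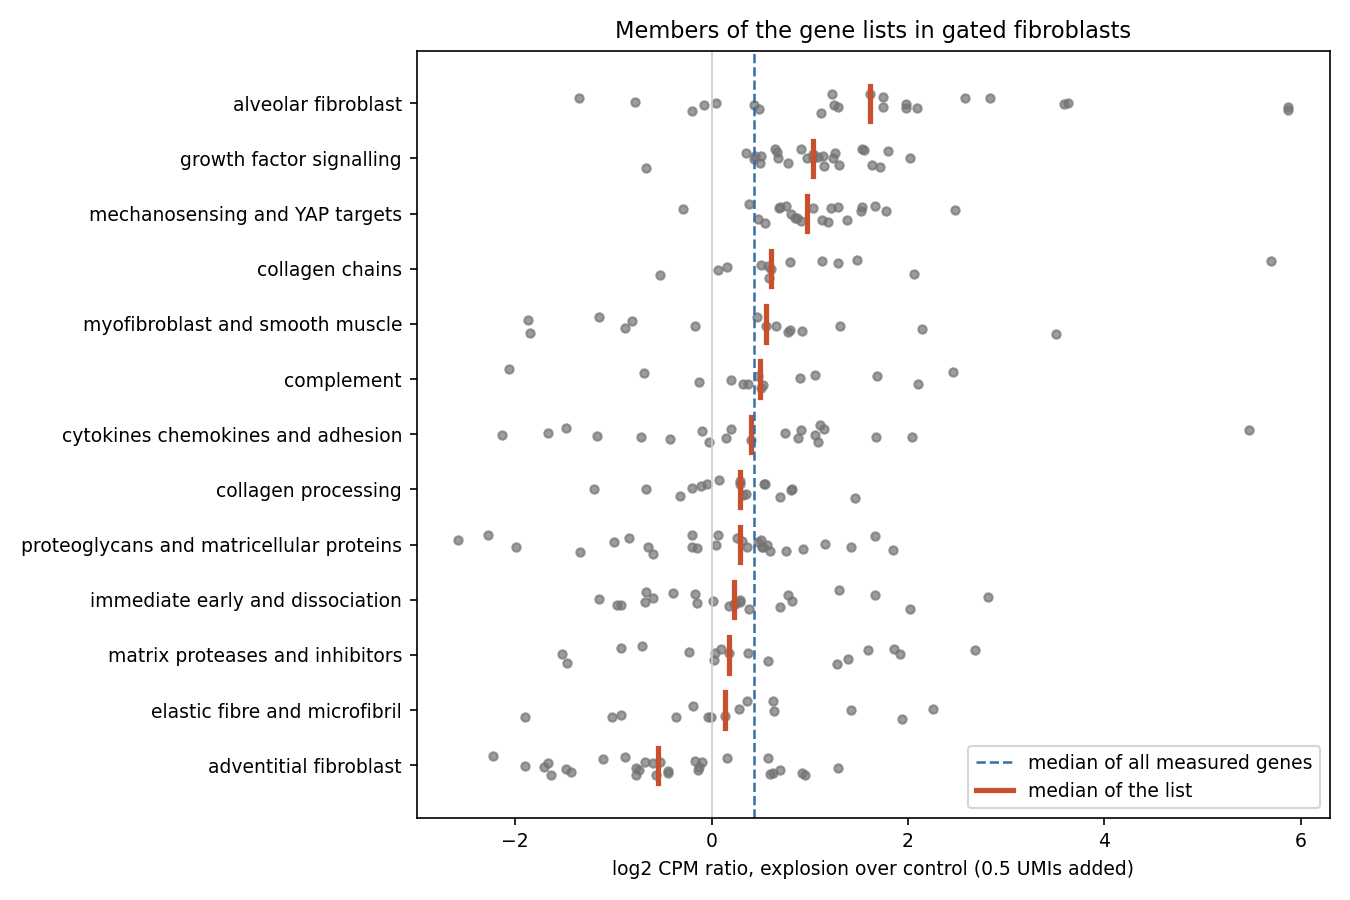
Log2 CPM ratio of explosion over control in gated fibroblasts for each measured member of 13 gene lists (points, jittered vertically), with each list's median as a thick bar and the median of all measured genes, 0.43, as a dashed line. The alveolar list median of 1.62 lies furthest right and the adventitial median of −0.55 furthest left.

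Contractile genes split. Of 15 measured genes 3 were at least 2-fold higher and 3 lower, with a median of 0.56. In the other barcodes 13 of these 15 were higher and 0 lower, with a median of 2.94. Mylk, the myosin light chain kinase, had 260 UMIs in explosion against 28 in control fibroblasts (783 against 67.6 CPM), 11.6-fold (7.83 to 17.8), and was seen in 28.1% (91 of 324) of explosion and 6.72% (8 of 119) of control fibroblasts at 500 UMIs. Hhip, a hedgehog antagonist, had 26 explosion and 7 control UMIs, but a log2 ratio of −0.060 when barcodes were thinned before gating, against 2.14 as gated. Actn1, an actin crosslinker, had 48 explosion and 24 control UMIs. Tagln had 59 explosion and 267 control UMIs and Tpm2, a tropomyosin, 17 explosion and 79 control UMIs. Tagln was counted in 33 explosion but 8 control barcodes. The smooth muscle actin Acta2 had 12 explosion and 34 control UMIs, in 10 explosion and 5 control barcodes. With no limit on mesothelial genes Acta2 stood at a log2 ratio of 0.29, against −1.15 with it. Cthrc1 had 13 explosion and 29 control UMIs, and Lrrc15, known from activated fibroblasts in tumours, was at 0 in both libraries.

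Signalling genes leaned to the explosion side. In the growth factor list 14 of 26 were at least 2-fold higher and 0 lower, with a median of 1.03, and in the other barcodes 23 of the same 26 were higher. Among ligands Tgfb3 had 82 explosion and 35 control UMIs, Hgf, which acts on epithelium, 56 explosion and 21 control UMIs, Vegfa 140 explosion and 82 control UMIs and Igf1 378 explosion and 348 control UMIs. Tgfb1 had only 5 explosion and 11 control UMIs. Among receptors Bmpr2 had 109 explosion and 46 control UMIs, Tgfbr2 171 explosion and 104 control UMIs, Igf1r 51 explosion and 18 control UMIs and Nrp1, a co-receptor for VEGF, 83 explosion and 43 control UMIs. Downstream, Smad3 had 33 explosion and 13 control UMIs, the inhibitory Smad7 57 explosion and 30 control UMIs, and Ptch1, a hedgehog receptor and target, 76 explosion and 23 control UMIs, 4.12-fold (2.56 to 6.89). Fst, an activin antagonist, leaned the other way with 21 explosion and 42 control UMIs.

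The mechanosensing list, made of stretch channels, integrins, cytoskeletal linkers and genes of the YAP pathway, had 11 of 22 members at least 2-fold higher and 0 lower, with a median of 0.98. In the other barcodes 18 of these 22 were higher. The stretch channel Piezo2 had 51 UMIs in explosion against 11 in control fibroblasts (154 against 26.6 CPM), 5.78-fold (2.98 to 12.3), and Piezo1 17 explosion and 13 control UMIs. The YAP target Ccn1 stood at 1286 CPM in explosion and 406 CPM in control fibroblasts, and Ccn2 at 1148 CPM in explosion and 679 CPM in control fibroblasts. Tead1, a DNA-binding partner of YAP, had 57 explosion and 27 control UMIs, Yap1 19 explosion and 10 control UMIs, filamin A (Flna) 162 explosion and 70 control UMIs, and the integrin chains Itgav 56 explosion and 20 control UMIs and Itga1 47 explosion and 20 control UMIs. Ankrd1, another YAP target, had 0 UMIs in explosion and 2 in control.

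Among cytokines, chemokines and adhesion genes 7 of 21 were at least 2-fold higher and 4 lower, with a median of 0.40. Cxcl14 had 195 UMIs in explosion against 5 in control fibroblasts (587 against 12.1 CPM), 48.6-fold (20.5 to 151), and a log2 ratio of 3.14 in the other barcodes. Receptor chains among the higher genes were Il4r at 64 explosion and 19 control UMIs, Il1r1 at 29 explosion and 11 control UMIs, Osmr at 19 explosion and 11 control UMIs and Il6st, the shared gp130 chain, at 163 explosion and 98 control UMIs. The others were Tnfaip3, a brake on NF-kB, at 34 explosion and 19 control UMIs and Nfkb1 at 40 explosion and 23 control UMIs. Ccl2 had 8 explosion and 46 control UMIs, 4.61-fold (2.15 to 11.3) lower, and Cxcl13 9 explosion and 26 control UMIs. The neutrophil attractant Cxcl1 had 22 explosion and 28 control UMIs, and the inflammatory cytokine Il6 and the enzyme Ptgs2 had at most 5 UMIs in either library. Cxcl12, the stromal retention factor, had 66 explosion and 72 control UMIs.

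Complement genes had 4 of 14 members at least 2-fold higher and 1 lower, with a median of 0.49. C3 had 37 explosion and 8 control UMIs, 5.77-fold (2.64 to 14.3), C4a 817 explosion and 317 control UMIs, and the chaperone clusterin (Clu) 252 explosion and 73 control UMIs. The values for C4a and Clu turned with the gate: with no limit on mesothelial genes their log2 ratios were −0.11 and −0.69, against 1.68 and 2.10 with it, and when barcodes were thinned before gating they were −0.33 and 0.09. C4b, a near-identical copy of C4a whose reads may be split between them, had 135 explosion and 271 control UMIs. C1r, a protease of the first component, had 416 explosion and 250 control UMIs, its substrate partner C1s 272 explosion and 244 control UMIs, and the C1 inhibitor Serping1 296 explosion and 286 control UMIs. The factor D gene Cfd was the lower member, with 4 explosion and 23 control UMIs.

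Immediate early genes, which tissue digestion is known to induce as well, had 4 of 23 members at least 2-fold higher and 1 lower, with a median of 0.23. Fos stood at 1882 CPM in explosion and 1594 CPM in control fibroblasts, and Jun at 1431 CPM in explosion and 1417 CPM in control fibroblasts. The nuclear receptor Nr4a1 had 121 explosion and 21 control UMIs and Egr1 66 explosion and 20 control UMIs, and the mRNA decay factor Zfp36 had 255 explosion and 100 control UMIs. Atf3 had 62 explosion and 151 control UMIs, and the heat shock genes Hspa1b 40 explosion and 95 control UMIs and Dnajb1 21 explosion and 59 control UMIs. Dnajb1 turned to a log2 ratio of 0.11 with no limit on mesothelial genes and 0.30 when thinned before gating, against −1.15.

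Markers of other cell types were present in the gate. Of 12 mesothelial genes 6 were measured, 2 of them higher, and the list's summed level was 816 CPM in explosion and 439 CPM in control fibroblasts. Gpm6a had 62 explosion and 15 control UMIs and Muc16 48 explosion and 9 control UMIs, while Calb2 was at 0 in both. Leaving out the barcodes with a UMI of Muc16, Wt1, Bnc1, Upk1b or Gpm6a, a choice made after seeing the data, kept 378 explosion and 103 control fibroblasts, an alveolar median of 1.61, an adventitial median of −0.59 and a log2 ratio for Npnt of 4.95. Macrophage genes summed to 2069 CPM in explosion and 6426 CPM in control fibroblasts, with Marco, Adgre1 and Cd163 at 0 in both and most of it from Lyz2, at 581 explosion and 2433 control UMIs. Monocyte and neutrophil genes summed to 786 CPM in explosion and 229 CPM in control, with 5 of 6 measured members higher, and Cxcr2 at 0 in both. Vcan, given above among the proteoglycans, also belongs to this list, which held 261 explosion and 95 control UMIs in all. Endothelial genes summed to 199 CPM in explosion and 379 CPM in control, with 1 of 4 measured members higher and 2 lower and Emcn at 0 in both. Lymphocyte genes summed to 398 CPM in explosion and 490.2 CPM in control, with 1 of 2 measured members lower, and erythroid genes to 328 CPM in explosion and 350.1 CPM in control, with 0 of 3 past 2-fold. Epithelial genes summed to 12611 CPM in explosion and 29476 CPM in control, with 4 of 12 higher and 4 lower. Scgb1a1 made up most of them. Bpifa1 had 0 UMIs in explosion and 244 in control fibroblasts, in 7 control barcodes. The surfactant gene Sftpc had 126 explosion and 31 control UMIs, but a log2 ratio of −0.17 with no limit on mesothelial genes, against 2.32 with it. The part of these transcripts in the other fibroblast results was not tested.

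Fibroblast ratios were set beside those of all barcodes outside the gate, which include the barcodes held out by mesothelial genes. Over the same 6318 genes the other barcodes had a median log2 ratio of 0.99, with 49.7% at least 2-fold higher and 7.36% lower. The fibroblast ratio was at least 2-fold above that of the other barcodes for 116 genes (1.84%) and at least 2-fold below it for 1557 (24.6%). The highest were Stk32a, Mdk, Col6a5, Enah, Cxcl14, Fmo2, Aldh1a1, Clu, Epas1 and Slc6a6. Mdk, the growth factor midkine, had 80 explosion and 16 control UMIs in fibroblasts and a log2 ratio of −0.56 in the other barcodes. Fmo2, the flavin monooxygenase abundant in lung, had 277 explosion and 105 control UMIs and −0.48 there. Epas1, the hypoxia factor HIF-2 alpha, had 119 explosion and 24 control UMIs and 0.89.

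The lowest were Sfrp2, Mrgprg, Mfap5, Scara5, Galnt15, Ccl11, C7, Abca8a, Abcc9 and Sparcl1. C7 was level in fibroblasts, with 1822 explosion and 2489 control UMIs, yet stood at a log2 ratio of 4.47 in the other barcodes, from 342 explosion and 249 control UMIs. Alveolar genes were higher outside the gate too: Itga8 had a log2 ratio of 5.12 there, from 20 explosion and 9 control UMIs, and Tbx4 4.50. Outside the gate 23 of the 30 adventitial genes were at least 2-fold higher in the explosion library, against 1 of 30 inside it, and 15 of the 23 alveolar genes, against 16 inside it. The edge of the gate lay differently in the libraries: 11 explosion and 152 control barcodes with 3 or more gate genes stayed outside because those genes held under 0.5% of their UMIs, at medians of 1266 UMIs in explosion and 13389 in control.

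**Figure D5:**
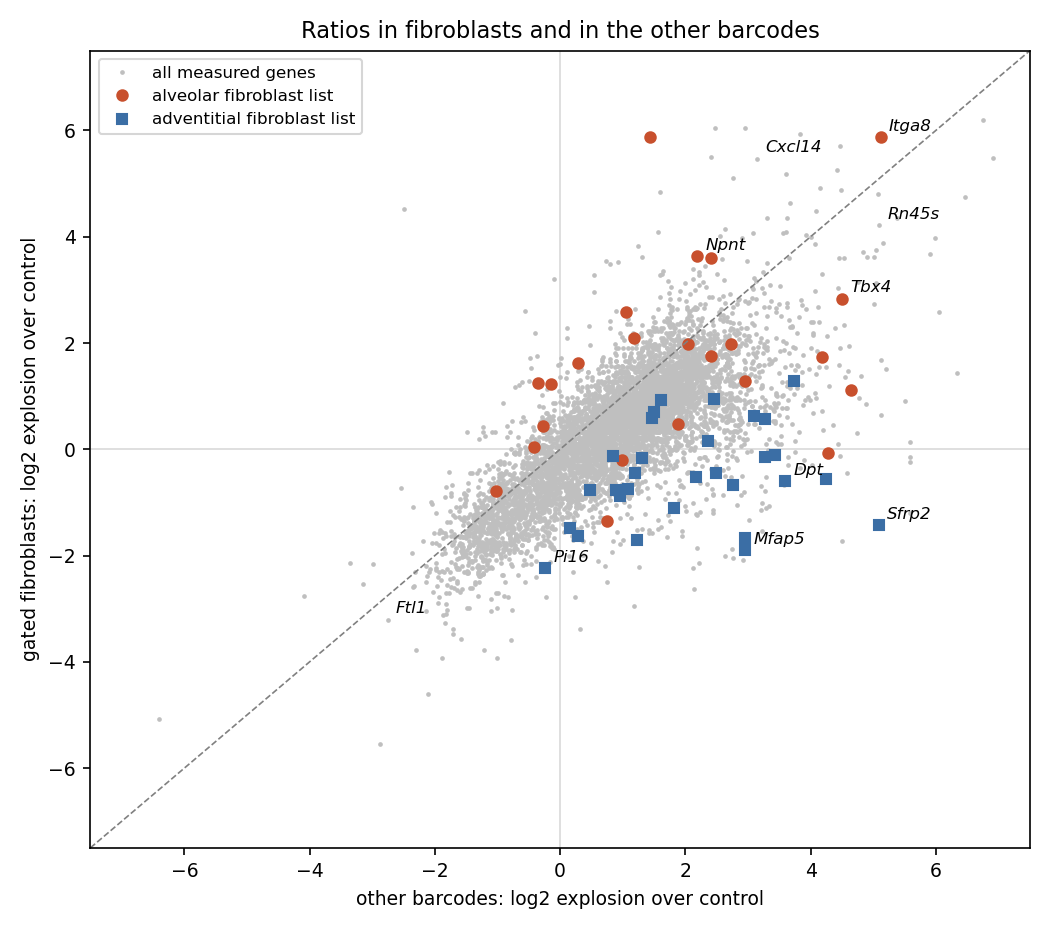
Log2 ratio of explosion over control in gated fibroblasts (vertical axis) against that in all other barcodes (horizontal axis) for the 6318 measured genes (small points), with the alveolar list as circles, the adventitial list as squares and a dashed line of equal ratios. Adventitial genes such as Sfrp2 and Mfap5 lie below the line, and Npnt and Cxcl14 above it.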

How the data were processed

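The authors deposited unnormalised UMI counts per gene and barcode, written by cellranger 7.1.0 per the file headers. Per the submitters' processing notes, reads were handled with Cell Ranger 6.1.1 and bcl2fastq 2.20, and both rn6 and mRatBN7.2 are listed as builds, with no role given. The labels' protocols describe tissue digestion (collagenase IV, papain, DNase I), red cell lysis and bead removal of dead cells. Digestion and bead removal can change which cells are recovered.

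The members and gene lists were chosen with earlier results of these data known. Barcodes with at least 200 of the 42172 genes were kept, and doublets called by Scrublet were marked but kept. UMIs were summed per library over the gated barcodes. A gene was measured with at least 20 UMIs over both libraries. Log2 ratios are explosion over control with 0.5 counts added. Intervals (95%) are the exact conditional interval for the ratio of a pair of Poisson counts, or the exact Clopper-Pearson interval for shares, and cover counting error only. Folds against a library at 0 were set against a floor of 3 counts per library. With 1 library per group no test was run. Of 454 list genes in 22 lists, 445 were in the files.

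Genes outside the lists were named by rule: the 12 highest and 12 lowest ratios, the 10 highest and 10 lowest ratios relative to the other barcodes, and the 20 genes most above the other barcodes. The first 4 of these groups needed at least 100 CPM and an interval beyond 1.5-fold. The scripts were tested on simulated data. Python 3.11.15, numpy 2.4.6, scipy 1.17.1, pandas 2.3.3, scanpy 1.11.5 and matplotlib 3.10.9 were used.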

Additional observations from a re-analysis of the deposited data

Results flagged for a closer look

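A set of 14 listed genes was flagged in which the explosion to control ratio was lower inside the gate and higher outside it. Other listed genes also had opposite directions but were not among the 14. Scara5 had a log2 ratio of −0.57 in fibroblasts and 4.25 outside, and Dpt −0.60 and 3.60. The difference was not tested, since each group had 1 library. Values are the log2 ratio in fibroblasts minus that in the other barcodes. Over all 6318 measured genes this value had a median of −0.53, and 24.6% of the genes were at least 2-fold lower by it. The share of all genes with opposite directions was not counted, so the 14 cannot be set against a background. Over all measured genes, 49.7% were at least 2-fold higher in the other barcodes and 14.1% at least 2-fold lower in fibroblasts. The other barcodes include those held out by mesothelial genes. Outside the gate Sfrp2 had only 28 explosion and 13 control UMIs, and Ccl11 5 explosion and 11 control UMIs. The widest of the 14 was Sfrp2 at −6.52, with −1.43 in fibroblasts and 5.09 outside. Scara5, not among the 14, stood at −4.82. Mfap5 stood at −4.86, Ccl11 at −4.61, Aspn at −4.36, Ccl2 at −4.36, Fbln2 at −4.24 and Tagln at −4.04. Entpd2 stood at −2.94, Dpp4 at −2.92, Htra1 at −2.75, Rarres2 at −2.10, Sparc at −2.02, Gsn at −1.85 and Ogn at −1.82. Sparc, which encodes a collagen-binding glycoprotein, was at −0.99 in fibroblasts and 1.02 outside, and Gsn, the actin-severing gelsolin, at −0.89 and 0.96.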

How the results depend on the processing

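No paired analysis was possible because each group had 1 library. The share difference of 2.92 percentage points became 2.14 with at least 4 gate genes, 5.70 with no limit on mesothelial genes, 4.24 from 500 UMIs and 4.42 when thinned before gating. The median of all genes, 0.43, was 0.27 without Scgb1a1, ribosomal, mitochondrial and Rn45s UMIs in the totals.

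The 1743 higher genes became 3416 with no mesothelial limit, 687 when thinned, 762 at 50 UMIs per gene and 5866 at 1 UMI. The 892 lower genes became 352 when thinned, 529 at 50 UMIs and 2806 at 1 UMI, as different numbers of genes were measured. Relative to the other barcodes, the 116 higher genes became 211 with no mesothelial limit, 202 without Scgb1a1 and the rest, 324 with each cell weighing the same, 34 at 50 UMIs and 1305 at 1 UMI. The 1557 lower genes became 564 when thinned, 691 at 50 UMIs and 5513 at 1 UMI.

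With no mesothelial limit the protease median was 0.83, the adventitial median 0.10 and the endothelial median 0.59, and these log2 ratios turned: Acta2 0.29, C4a −0.11, Clu −0.69, Dnajb1 0.11, Sftpa1 −0.18 and Sftpc −0.17. When thinned, these turned: Adamts10 −0.98, C4a −0.33, Cd79a 0.30, Dnajb1 0.30, Hhip −0.060, Kdr −0.49, Msr1 0.30 and Tgfbr1 −0.0024. Without called doublets Cd79a stood at 0.74. The cause was not tested. Of 4788 gene and setting pairs over 342 genes and 14 settings, 4362 stayed within the counting interval, 411 left it and 15 turned direction. The number of libraries limits every comparison.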
